A study of Mus musculus with 12 samples.

Results

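The nuclear factor-κB (NF-κB) subunits and feedback inhibitors are 10 genes. They are the subunits Nfkb1, Nfkb2, Rel, Rela and Relb, and the genes Nfkbia, Nfkbie and Nfkbiz of the inhibitor (IκB) family. The remaining genes, Tnfaip3 and Birc3, encode ubiquitin enzymes. Probes were matched to the members by gene symbol, and every probe with one of these symbols was taken. This gave 12 probes for 10 of the 34509 symbols in the table, and 9 of these probes, for 8 genes, were bright enough to test. The remaining 3 probes, for Rel, Birc3 and a second position in Nfkbie, were not well above background on any of the 12 arrays.

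RNA was measured in femoral head cartilage explants from 21-day-old TS-4/5∆cat mice on 12 Illumina bead arrays. Explants, 4 to a well, were left untreated or were treated for 3 days with 10 ng/mL interleukin-1α (IL-1α) or 10 µM retinoic acid. All 3 groups, the untreated one included, carried in-frame deletions that remove the catalytic domains of ADAMTS-4 and ADAMTS-5, so no explant stands for wild-type cartilage. Each treatment had 4 arrays, of which 2 in batch 1 came from the line named Donut and 2 in batch 2 came from the line named Gertrude, so that line and batch cannot be told apart. The labels do not settle whether the replicates of a batch were separate animals, and p-values then measure only the spread between these arrays, which may be technical. The methods give 3 unpooled mice per treatment, fewer than the 4 arrays counted here as n, and do not say which arrays they are. How unpooled mice fit with 4 explants to a well is not stated either. The labels mention a day in serum before treatment, whereas the methods describe serum-free culture.

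NF-κB transcription factors are pairs of subunits that the inhibitor proteins of the IκB family hold in the cytoplasm. Signalling from receptors such as those for IL-1 and tumour necrosis factor activates the IκB kinase (IKK) complex, which marks the inhibitors for destruction and frees the subunits to enter the nucleus. Several genes that the pathway switches on encode its own inhibitors, which makes a negative feedback loop, and in chondrocytes the pathway is known for raising inflammatory mediators and matrix-degrading enzymes.

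The feedback members can carry κB sites, the DNA sequences that NF-κB binds, in their own promoters. The motif searched spans 10 bases, GGG, then A or G, any base, A or T, C or T at 2 positions, and CC, on either strand, and overlapping matches were all counted. RefSeq promoter windows of the GRCm38.p6 build, from 250 bases before to 50 bases after a transcription start, covered 7 of the 10 members. Of these 7 genes, 5 held a match in any of their windows, as did 5.14% of all 27025 genes with windows, and 4.51% of all 32851 windows held one. No window is listed there for Nfkb1, Relb and Nfkbiz. The windows of Nfkbia (chr12:55492598-55492897, minus strand), Nfkbie (chr17:45555450-45555749, plus strand) and Tnfaip3 (chr10:19015361-19015660, minus strand) are shown because these feedback genes were called in the treatment comparisons. A stretch of the Nfkb2 window (chr19:46304667-46304786, plus strand) is shown because it holds separate matches close together. All are written 5′ to 3′ along the gene's strand, with the matches in capitals.
Nfkbia: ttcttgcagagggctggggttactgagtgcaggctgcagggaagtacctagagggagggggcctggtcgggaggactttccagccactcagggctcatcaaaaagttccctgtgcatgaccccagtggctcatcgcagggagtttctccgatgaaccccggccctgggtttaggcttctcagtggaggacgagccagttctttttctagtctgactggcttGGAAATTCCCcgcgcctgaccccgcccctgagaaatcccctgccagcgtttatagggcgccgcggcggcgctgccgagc
Nfkbie: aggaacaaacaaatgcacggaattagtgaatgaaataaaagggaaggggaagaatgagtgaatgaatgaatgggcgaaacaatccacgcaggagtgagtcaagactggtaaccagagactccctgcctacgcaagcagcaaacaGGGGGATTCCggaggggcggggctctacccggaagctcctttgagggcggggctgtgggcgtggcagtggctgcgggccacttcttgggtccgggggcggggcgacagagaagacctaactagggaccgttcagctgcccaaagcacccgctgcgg
Tnfaip3: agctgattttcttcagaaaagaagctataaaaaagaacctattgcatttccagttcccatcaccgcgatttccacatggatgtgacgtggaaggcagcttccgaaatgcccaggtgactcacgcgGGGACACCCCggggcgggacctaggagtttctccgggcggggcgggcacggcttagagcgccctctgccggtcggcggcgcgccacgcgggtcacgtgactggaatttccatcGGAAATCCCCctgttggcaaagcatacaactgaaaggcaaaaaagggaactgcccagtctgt
Nfkb2: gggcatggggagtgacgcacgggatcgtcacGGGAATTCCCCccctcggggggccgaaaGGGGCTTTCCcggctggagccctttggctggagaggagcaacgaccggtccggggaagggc

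The match in Nfkbia began 29 bases before the start and lay on the opposite strand. In Nfkbie the match began 106 bases before the start on the gene's strand. Tnfaip3 had matches beginning 125 and 12 bases before the start of this window, and none in the window of its other listed start. Nfkb2 had overlapping matches from 39 bases and a separate one from 11 bases before the start, and its other 2 windows also held matches. Rel had overlapping matches from 92 bases before its start, whereas the windows of Rela and Birc3 had none. The motif was searched by letters only, and binding was not measured in these data.

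**Figure D1:**
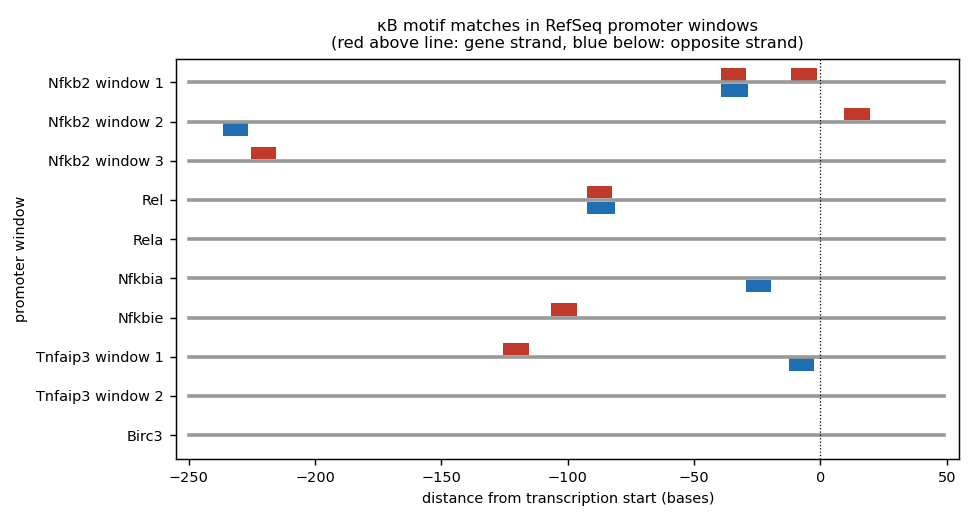
Positions of κB motif matches in the 10 RefSeq promoter windows of 7 members, as distance in bases from each transcription start. Red blocks above a line are matches on the gene's strand and blue blocks below are matches on the opposite strand, and 3 windows (Rela, Birc3 and the second of Tnfaip3) have no block.

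The arrays of batch 2 detected more probes (16732 to 19485) than those of batch 1 (13786 to 14965), at a detection p under 0.05. Arrays of one treatment and batch correlated at 0.983 to 0.995, whereas arrays of one treatment in different batches correlated at 0.868 to 0.902. Chondrocyte markers, including Acan and Col2a1, were measured for 12 of 15 listed genes (Matn3, Cnmd and Ucma were not), and their summed intensity was 93400 to 111000 untreated, 60300 to 79200 with IL-1α and 25000 to 32600 with retinoic acid. Macrophage markers (9 of 11 tested, without Ptprc and Fcer1g) summed to 8710 to 9150, 7350 to 11000 and 10100 to 11200 in the same order. Neutrophil markers (9 of 11, without Mmp8 and Itgb2l) summed to 9930 to 17100, 17300 to 18200 and 6060 to 15300. Endothelial markers (7 of 8, without Esam) summed to 2640 to 3200, 1260 to 1690 and 2930 to 3410, and osteoblast markers (5 of 7, without Runx2 and Dmp1) to 8530 to 11000, 2030 to 4160 and 2370 to 3590. Of 9 lymphocyte markers only Cd79b and Cd52 were bright enough to test, and the T cell genes Cd3d, Cd3e and Cd3g were not. The summed intensity of those 2 genes was 123 to 178, 127 to 260 and 294 to 315, and both were called higher with retinoic acid than untreated. Osteoclast markers (4 of 7, without Calcr, Ocstamp and Atp6v0d2) summed to 1850 to 5180, 3700 to 5530 and 3070 to 7490. The part of any shift in cell types in the results that follow was not tested, and in whole explants (bulk RNA) fewer cells of a type and less RNA per cell cannot be told apart.

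Most NF-κB members rose with IL-1α. Of the 8 members tested, 7 were higher with IL-1α than untreated at a limma adjusted p under 0.05, 0 were lower and Nfkb2 did not pass, whereas 15.1% of all 14317 genes tested were called higher and 15.0% lower. The IκB family genes Nfkbie and Nfkbiz rose most, by 1.84 and 1.72 on the log2 scale, and Relb rose by 1.45. The median log2 fold change of the 8 members was 0.88, beside 0.01 for all genes. With retinoic acid, 2 of the 8 members were higher than untreated, Nfkbie and Tnfaip3, and 0 were lower. Of all genes, 18.6% were called higher and 18.1% lower. The median log2 fold change of the members with retinoic acid was 0.10, beside 0.01 for all genes.

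In the direct comparison of retinoic acid with IL-1α, 6 of 8 members were lower with retinoic acid (16.4% of all genes were), and Tnfaip3 was higher (16.1% of all genes were). Their median log2 fold change was -0.79, beside -0.03 for all genes. Without the batch and replicate terms in the model, the members called fell from 7 to 3 for IL-1α against untreated, from 2 to 0 for retinoic acid against untreated and from 7 to 4 for retinoic acid against IL-1α. Median scaling of the arrays, without quantile normalization, left 4 members called with IL-1α against untreated (Nfkb1, Rela and Tnfaip3 did not pass), and it added Nfkbiz to the members called with retinoic acid. These comparisons share arrays, so they are not independent of each other.

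**Figure D2:**
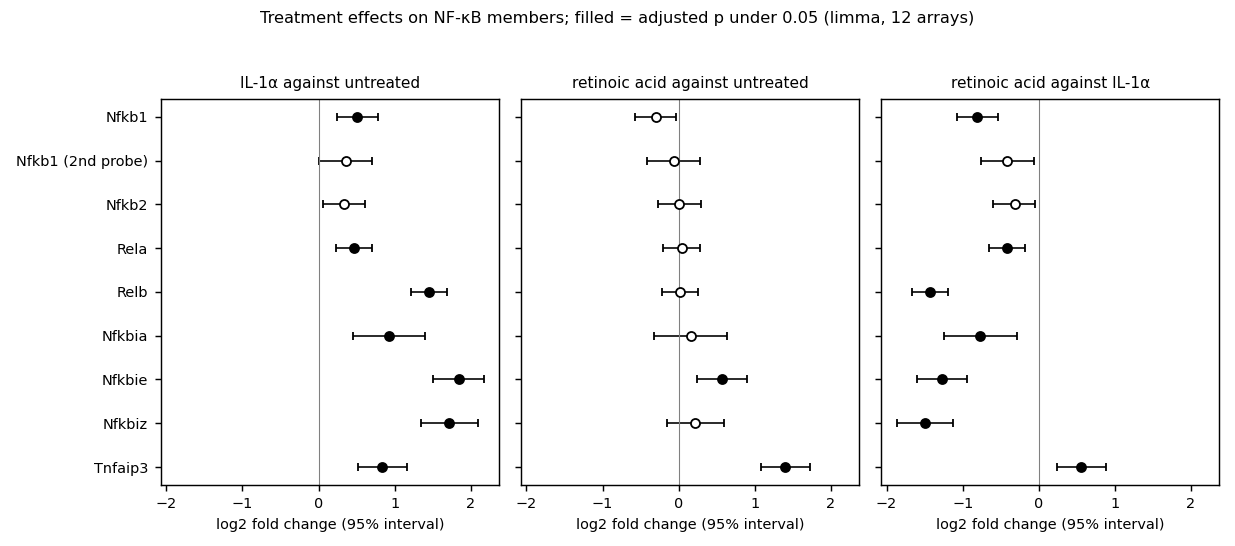
Log2 fold changes of the 9 tested probes of 8 members in 3 comparisons, with 95% intervals from limma. Filled circles passed an adjusted p of 0.05. In the left panel every estimate lies above 0, in the middle panel only Nfkbie and Tnfaip3 are filled, and in the right panel Tnfaip3 alone lies above 0.

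Values for single genes are given as log2 intensity after background correction and quantile normalization, with the 2 arrays of batch 1 before the 2 arrays of batch 2. The offset of 16 added before the logarithm understates the change of dim probes.

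Rela encodes the subunit that carries a transactivation domain in the most common NF-κB pair. It read 10.51, 10.81, 10.27 and 10.19 untreated, 11.11, 11.21, 10.76 and 10.55 with IL-1α, and 10.58, 10.67, 10.42 and 10.27 with retinoic acid. The IL-1α arrays were above the untreated arrays within each batch, but the ranges overlapped across batches. The log2 fold change with IL-1α was 0.46 ± 0.11 (SE, n = 4 arrays per group, limma adjusted p = 0.00712), and it was 0.50 in batch 1 and 0.43 in batch 2. With retinoic acid Rela differed from untreated by 0.04 (95% interval -0.20 to 0.28), and it was lower than with IL-1α by -0.42 on the log2 scale (limma adjusted p = 0.0102).

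Nfkb1 encodes a precursor that is processed into the usual partner of the Rela protein. Its brighter probe read 8.95, 9.20, 9.51 and 9.29 untreated, 9.66, 9.70, 9.89 and 9.74 with IL-1α, and 8.52, 8.74, 9.32 and 9.19 with retinoic acid. All 4 IL-1α arrays lay above all arrays of both other groups, which overlapped each other. The probe rose with IL-1α by 0.51 ± 0.12 (SE, n = 4, limma adjusted p = 0.00841). The difference between retinoic acid and untreated was -0.30 (95% interval -0.57 to -0.03, limma adjusted p = 0.0843), and the gene was lower with retinoic acid than with IL-1α by -0.81 (limma adjusted p = 2.59e-04).

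The other Nfkb1 probe gave a different picture in batch 1. It read 9.32, 8.99, 7.72 and 7.60 untreated, 9.13, 9.04, 8.54 and 8.34 with IL-1α, and 8.94, 8.91, 7.86 and 7.69 with retinoic acid. The difference between IL-1α and untreated was -0.07 in batch 1 and 0.78 in batch 2, a difference between batches of 0.85 (limma adjusted p = 0.0380), and over both batches it was 0.36 ± 0.16 (SE, limma adjusted p = 0.112). As a description, the log2 values of the Nfkb1 probes correlated at 0.30 over the 6 arrays of batch 1 and at 0.92 over the 6 of batch 2. In batch 1 the brighter probe alone was higher with IL-1α.

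Relb encodes the subunit of the non-canonical branch of the pathway. It read 7.46, 7.45, 6.48 and 6.35 untreated, 8.70, 8.86, 7.96 and 8.03 with IL-1α, and 7.34, 7.49, 6.52 and 6.48 with retinoic acid. The lowest IL-1α array lay above the highest array of both other groups, while the untreated and retinoic acid arrays of each batch lay close together. The rise with IL-1α was 1.45 ± 0.11 on the log2 scale (SE, n = 4, limma adjusted p = 1.19e-06), or 2.74-fold, and it was 1.33 in batch 1 and 1.58 in batch 2. Retinoic acid differed from untreated by 0.02 on the log2 scale, with a 95% interval from -0.22 to 0.26. Relb was lower with retinoic acid than with IL-1α by -1.43 (limma adjusted p = 5.38e-07).

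Nfkb2 encodes the precursor of the non-canonical partner of the Relb protein. In batch 2 it read 6.08 and 6.09 untreated, 6.67 and 6.44 with IL-1α, and 5.97 and 6.06 with retinoic acid. In batch 1 its probe was not well above background on any of 6 arrays (4.64 to 4.91), so only batch 2 measured it. Over both batches the difference between IL-1α and untreated was 0.33 ± 0.13 (SE, limma adjusted p = 0.0675), and in batch 2 it was 0.47. The difference between retinoic acid and untreated was 0.01 (95% interval -0.27 to 0.29).

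Rel encodes the remaining subunit, which is best known in lymphocytes. Its probe read 4.48 to 4.93 over the 12 arrays and no level can be given in any group.

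Nfkbia encodes IκBα, the inhibitor that is degraded and remade fastest in the feedback loop. In batch 2 it read 5.68 and 5.70 untreated, 6.97 and 7.32 with IL-1α, and 5.80 and 5.69 with retinoic acid. Both IL-1α arrays of that batch lay well above the other 4, which lay close together. The batch 2 difference between IL-1α and untreated was 1.46, whereas in batch 1 the probe was not well above background on any of 6 arrays (4.69 to 5.28) and gives no fold. Over both batches the rise was 0.93 ± 0.22 (SE, n = 4, limma adjusted p = 0.00742). With retinoic acid the difference from untreated was 0.16 (95% interval -0.32 to 0.63). Retinoic acid was lower than IL-1α by -0.77 over both batches (limma adjusted p = 0.0175) and by -1.40 in batch 2. This call was lost without any single one of the 4 treated arrays of batch 2 (limma adjusted p up to 0.0772), and with no filter on dim probes the calls against untreated and against IL-1α were both lost (limma adjusted p = 0.0675 and 0.122).

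Nfkbie encodes IκBε, an inhibitor that acts later in the feedback loop. It read 5.85, 6.63, 5.74 and 5.60 untreated, 8.36, 8.34, 7.26 and 7.21 with IL-1α, and 6.71, 7.07, 6.27 and 6.04 with retinoic acid. The IL-1α arrays lay above all other arrays, and within each batch the retinoic acid arrays lay between the other groups. The rise with IL-1α was 1.84 ± 0.15 (SE, n = 4, limma adjusted p = 2.42e-06), or 3.57-fold. It was 2.11 in batch 1 and 1.56 in batch 2, a difference that did not pass (limma adjusted p = 0.317). With retinoic acid Nfkbie rose by 0.57 ± 0.15 (SE, limma adjusted p = 0.0106), 0.65 in batch 1 and 0.48 in batch 2, although the groups overlapped across batches. It was lower with retinoic acid than with IL-1α by -1.27 (limma adjusted p = 2.78e-05). The other Nfkbie probe read 4.52 to 4.88 and was not tested.

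Nfkbiz encodes IκBζ, a nuclear member of the family that works mainly as a co-activator of a subset of NF-κB target genes. Its values were 8.91, 8.95, 8.54 and 8.85 untreated, 10.28, 10.38, 10.83 and 10.63 with IL-1α, and 9.23, 9.28, 8.89 and 8.71 with retinoic acid. The 4 IL-1α arrays were separated from all others by a wide gap, and the other groups overlapped. The rise with IL-1α was 1.72 ± 0.17 (SE, n = 4, limma adjusted p = 1.23e-05), or 3.29-fold, with 1.40 in batch 1 and 2.04 in batch 2. The difference between retinoic acid and untreated was 0.22 (95% interval -0.15 to 0.59). Nfkbiz was lower with retinoic acid than with IL-1α by -1.50 (limma adjusted p = 1.76e-05), and this difference was larger in batch 2 (-1.93) than in batch 1 (-1.07, limma adjusted p of the difference = 0.0226).

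Tnfaip3 encodes a ubiquitin-editing enzyme that switches off signalling from the IL-1 and tumour necrosis factor receptors to IKK. It read 5.08, 4.64, 6.11 and 6.48 untreated, 5.64, 5.78, 7.30 and 6.96 with IL-1α, and 6.38, 5.95, 7.93 and 7.67 with retinoic acid. In each batch the order was untreated lowest, IL-1α between and retinoic acid highest, with no overlap within a batch, although batch 1 as a whole lay below batch 2. Both untreated arrays of batch 1 were not well above background. Tnfaip3 rose with retinoic acid by 1.40 ± 0.15 (SE, n = 4, limma adjusted p = 8.34e-06), by at least 1.84-fold in batch 1 and from a mean of 6.29 to a mean of 7.80 in batch 2. With IL-1α it rose by 0.84 ± 0.15 (SE, limma adjusted p = 0.00103), by at least 1.34-fold in batch 1 and by 0.83 on the log2 scale in batch 2. The bounds set the brighter arrays against the lowest signal detected on each untreated array. Of the members tested, Tnfaip3 alone was above its IL-1α level with retinoic acid, by 0.56 ± 0.15 (SE, limma adjusted p = 0.0106), 0.45 in batch 1 and 0.67 in batch 2.

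Birc3 encodes a ubiquitin ligase of the inhibitor-of-apoptosis family that acts at the tumour necrosis factor receptors. Its probe read 4.52 to 4.78 on the 12 arrays and was not tested. RefSeq lists Birc2 and Birc3 as synonyms of each other, so which of these genes each array symbol stands for is uncertain. The probe with the symbol Birc2 was called higher with IL-1α than untreated (limma adjusted p = 0.00432) and lower with retinoic acid than with IL-1α (limma adjusted p = 4.99e-04). It was detected on 4 of 4 IL-1α arrays, 3 of 4 untreated arrays and 2 of 4 retinoic acid arrays, with none of the retinoic acid arrays of batch 1. In batch 2, where all were detected, the differences were 0.49 and -0.81.

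**Figure D3:**
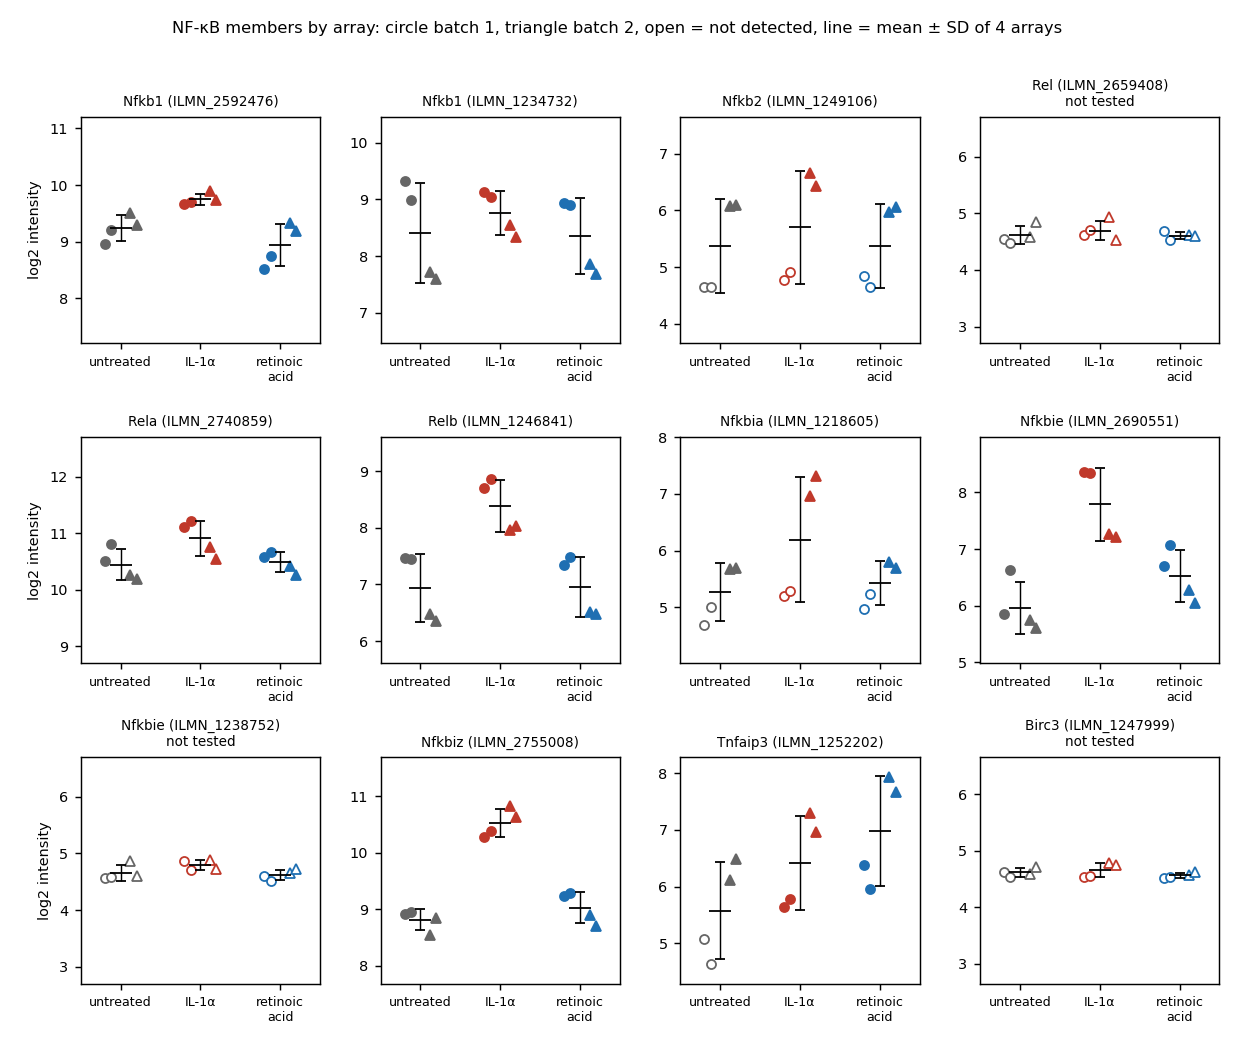
Log2 intensity of each of the 12 member probes on the 12 arrays, by treatment, with circles for batch 1 and triangles for batch 2. Open symbols were not detected at a p of 0.05, and bars are the mean ± SD of 4 arrays. Relb, Nfkbie, Nfkbiz and the brighter Nfkb1 probe show IL-1α arrays above all others, whereas Tnfaip3 is highest with retinoic acid within each batch.

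Of the 8 members, 4 had IL-1α arrays that all lay above all untreated arrays (Nfkb1, Relb, Nfkbie and Nfkbiz), whereas 7.17% of all genes did. The exact two-sided permutation p of each of these was 0.0286, the smallest that 4 arrays against 4 allow. This p follows from the separation itself, and the shuffling ignored the batches. For the other members called, the groups overlapped. No member had retinoic acid arrays all above the untreated arrays, and 8.95% of all genes did, a share at which 0 of 8 is no contrast. Within each batch, with 2 arrays against 2, the retinoic acid arrays of Tnfaip3 and Nfkbie lay above the untreated arrays. The share of all genes that did so was not counted, so this is a description only. The same 4 members had retinoic acid arrays all below the IL-1α arrays, whereas 9.83% of all genes did. The effect of IL-1α against untreated differed between batches for 1 of the 8 members, Nfkbia (4.57% of all genes). The difference between the treatments, retinoic acid and IL-1α, did so for 2, Nfkbia and Nfkbiz (8.91% of all genes). Nfkbia was not well above background on any array of batch 1, so its effects in that batch were not measured. Retinoic acid against untreated differed between batches for 0 of 8 members by limma (2.70% of all genes), and by the other settings tried the count was also 0.

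As a description over the 12 arrays after centring each batch, the log2 values of Relb and Nfkbiz correlated at 0.97, those of Rela and Nfkbie at 0.94 and those of Relb and Nfkbie at 0.91. Tnfaip3 correlated with the other 7 members between -0.24 (Nfkb1) and 0.34 (Nfkbie). The treatments shared by all members enter these values. Among all tested genes, the pattern most like that of Relb was Nos2 (0.995), the pattern most like that of Nfkbiz was Steap4 (0.989), and the pattern most like that of the brighter Nfkb1 probe was Cdr2 (0.990). The named gene nearest to Tnfaip3 was Rdh9, of the retinol dehydrogenase family (0.975), that nearest to Nfkbia was Ttc7 (0.949), and that nearest to Nfkb2 was the metal transporter gene Slc39a8 (0.937). The nearest to Rela with a gene name was Tmem43 (0.971).

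Of 63 listed other genes of the pathway, 55 were tested. With IL-1α 26 of these were higher (15.1% of all genes were) and 2 lower than untreated, 27 did not pass, and the median log2 fold change was 0.37. In either direction 30.2% of all genes were called. With retinoic acid 19 were higher and 3 lower (36.7% of all genes were called in either direction), with a median of 0.21. Retinoic acid against IL-1α gave 9 higher and 18 lower (32.5% of all genes), with a median of -0.02. The medians of all genes were 0.01, 0.01 and -0.03. Zc3h12a and Cd40 passed the filter only with their IL-1α arrays, Il1rap only with its untreated arrays and Il1r2 only with its treated arrays. These genes entered the counts only through the groups where they were high.

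Bcl3, a nuclear IκB family member that binds homodimers of NF-κB subunits, was the single other gene of that family tested. It rose with IL-1α by 1.34 ± 0.14 (SE, limma adjusted p = 2.13e-05) and with retinoic acid by 0.80 ± 0.14 (limma adjusted p = 7.46e-04).

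Of 10 genes of the IKK complex and its kinases, 5 rose with IL-1α and 5 with retinoic acid, and none fell in either comparison. Of all genes, 15.1% and 18.6% were called higher and 15.0% and 18.1% lower in these comparisons. Map3k8, a kinase bound by the Nfkb1 precursor, rose with IL-1α by 1.71 ± 0.11 (SE, limma adjusted p = 3.03e-07) and differed by -0.26 with retinoic acid (limma adjusted p = 0.0913). Ikbke, an IKK-related kinase, rose with IL-1α by 1.35 ± 0.13 (SE, limma adjusted p = 1.28e-05) and with retinoic acid by 0.41 (limma adjusted p = 0.0298). Map3k14 was highest with retinoic acid. It encodes the NF-κB-inducing kinase of the non-canonical branch, and its log2 values were 6.54 to 7.53 untreated, 6.69 to 7.70 with IL-1α and 7.91 to 8.77 with retinoic acid. It rose with retinoic acid by 1.37 ± 0.12 (SE, n = 4, limma adjusted p = 1.19e-06), 1.42 in batch 1 and 1.33 in batch 2, and it exceeded its IL-1α level by 1.14 (limma adjusted p = 7.13e-06). Tab2, an adaptor of the kinase upstream of IKK, rose by 0.61 with IL-1α and by 0.59 with retinoic acid (limma adjusted p = 0.00845 and 0.00757).

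Among 22 receptors, adaptors and TRAF genes, 12 rose and 0 fell with IL-1α, while 6 rose and 2 fell with retinoic acid. The shares of all genes were 15.1% and 15.0% with IL-1α, and 18.6% and 18.1% with retinoic acid. With retinoic acid 36.4% of the 22 genes were called in either direction, near the 36.7% of all genes. Tnfrsf1b, a tumour necrosis factor receptor, rose by 1.77 ± 0.13 with IL-1α and by 1.93 ± 0.13 with retinoic acid (SE, limma adjusted p = 1.12e-06 and 1.79e-07). Irak2, a kinase downstream of the IL-1 receptor, rose by 1.60 with IL-1α and by 1.70 with retinoic acid (limma adjusted p = 4.89e-07 and 1.08e-07). Tlr2, a receptor for microbial lipoproteins, rose with IL-1α by 1.25 (limma adjusted p = 2.20e-04) and fell by 2.16 with retinoic acid (limma adjusted p = 8.68e-07), with log2 values of 9.26 to 9.70 untreated and 7.22 to 7.45 with retinoic acid. Traf2, an adaptor of the tumour necrosis factor receptors, rose with IL-1α by 1.38 (limma adjusted p = 1.58e-05), and its untreated level was detected on 2 of 4 arrays.

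Of 22 ubiquitin enzymes and negative regulators, 8 rose and 2 fell with IL-1α, and 7 rose and 1 fell with retinoic acid. As shares of all genes, 15.1% rose and 15.0% fell with IL-1α, and 18.6% rose and 18.1% fell with retinoic acid. The 36.4% called in either direction with retinoic acid lay near the 36.7% of all genes. Tnip1, which binds the protein made from Tnfaip3, rose with IL-1α by 1.34 ± 0.11 (SE, limma adjusted p = 3.11e-06) and differed by 0.20 with retinoic acid (limma adjusted p = 0.205). Tnfaip2, a gene named for its induction by tumour necrosis factor, rose by 1.27 with IL-1α and by 0.69 with retinoic acid (limma adjusted p = 6.09e-05 and 0.00332). Zc3h12a, an RNase that degrades inflammatory transcripts, rose with IL-1α by 1.18 (limma adjusted p = 7.58e-04), but was detected on 3 of 4 IL-1α arrays and 1 of 4 untreated arrays. It passed the filter only with its IL-1α arrays. In batch 1 its untreated arrays were not well above background, so its fitted value is no bound. Peli1, a ubiquitin ligase, rose with retinoic acid by 0.94 ± 0.16 (SE, limma adjusted p = 3.97e-04).

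**Figure D4:**
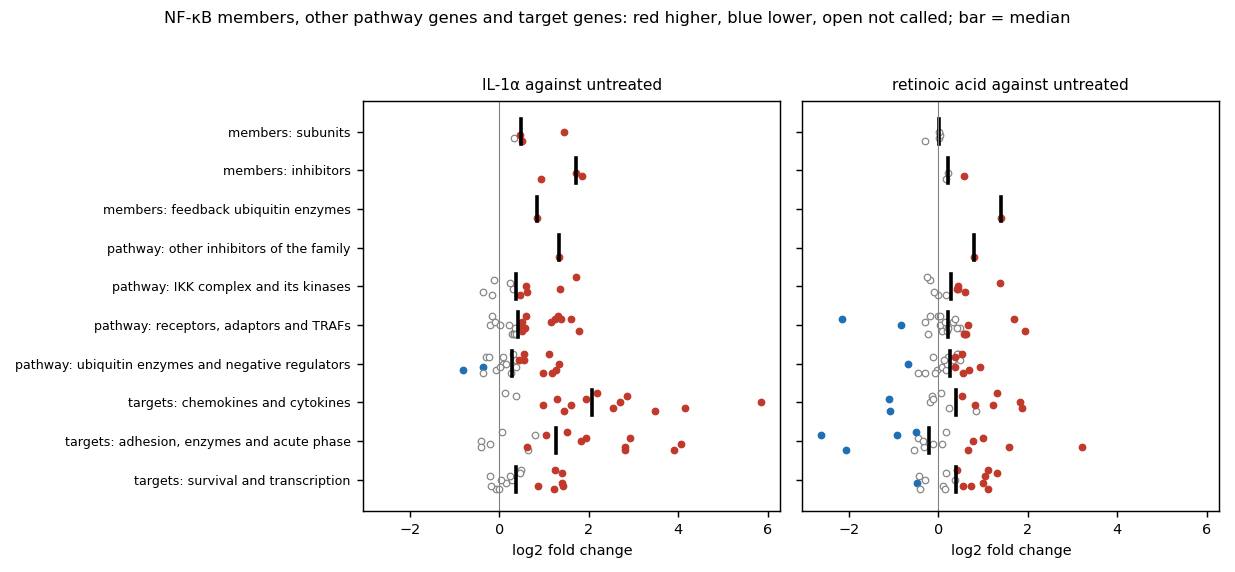
Log2 fold changes of single genes in each list for IL-1α against untreated (left) and retinoic acid against untreated (right), with a black bar at each list's median. Red points were higher and blue points lower at an adjusted p of 0.05, and open points were not called. The chemokine and cytokine targets reach 5.86 with IL-1α (Ccl5) and 1.86 with retinoic acid (Ccl3).

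Known NF-κB target genes, 46 tested of 56 listed, rose with IL-1α in 28 cases (15.1% of all genes were called higher) and fell in 0, with a median log2 fold change of 1.23. With retinoic acid 19 rose and 7 fell (18.6% and 18.1% of all genes), with a median of 0.17. Against IL-1α, 6 were higher and 30 lower with retinoic acid (16.1% and 16.4% of all genes), with a median of -0.78. Nos2 and Csf3 were detected on IL-1α arrays alone, so they entered these counts only through the group where they were high. Ccl5 and Il1a also passed the filter only with their IL-1α arrays. Genes called higher with IL-1α were 12 of 14 chemokines and cytokines, and 10 of 16 for adhesion, enzymes and acute phase proteins. For survival and transcription they were 6 of 16, and of all genes 15.1% were called higher.

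Among the chemokines, Ccl5 read 4.73 to 5.26 untreated and 9.90 to 11.96 with IL-1α, a log2 fold change of 5.86 ± 0.31 (SE, limma adjusted p = 5.93e-08), with 2 of 4 untreated arrays detected. With retinoic acid it was not well above background on any array, and it was at least 52.1-fold lower than with IL-1α (limma adjusted p = 1.11e-08). Cxcl2 and Cxcl1, neutrophil-attracting chemokines, rose with IL-1α by 4.15 and 3.47 (limma adjusted p = 2.29e-05 and 6.60e-06). The IL-1α values of Cxcl1, 13.75 to 14.04, lay near the top of the scale at 14.24. In batch 1 the untreated arrays did not detect Ccl5 or Cxcl2, so their fitted values are no bounds, and the batch 2 values were 6.61 and 5.43. Ccl3, a macrophage chemokine, and the cytokine gene Il1b rose with retinoic acid by 1.86 and 1.83 (limma adjusted p = 9.72e-05 and 1.61e-04). Both were detected on all 4 retinoic acid arrays. With IL-1α they rose by 2.55 and 2.69 (limma adjusted p = 1.38e-05 and 1.30e-05). Il1b was lower with retinoic acid than with IL-1α by -0.86 (limma adjusted p = 0.0270), and Ccl3 did not pass (limma adjusted p = 0.0584). The retinoic acid effect on Ccl3 was 2.60 in batch 1 and 1.12 in batch 2 (limma adjusted p of the difference = 0.0134), with 3 of 4 untreated arrays detected. That on Il1b was 2.67 in batch 1 and differed between batches (limma adjusted p of the difference = 0.00119), but its untreated arrays of batch 2 were not well above background. Retinoic acid arrays were also higher than untreated for 5 of 9 macrophage markers (18.6% of all genes were) and lower for 0. With IL-1α, 2 of these 9 were higher and 4 lower than untreated (15.1% and 15.0% of all genes). The part of macrophages in the values of Ccl3 and Il1b was not tested.

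Nos2, the inducible nitric oxide synthase, read 8.89 to 9.02 with IL-1α and was not well above background on any untreated or retinoic acid array. It passed the filter only through its IL-1α arrays, with a rise of at least 14.1-fold over untreated (limma adjusted p = 1.21e-10). Steap4, a metalloreductase, and Icam1, an adhesion molecule, rose with IL-1α by 3.90 and 2.92 (limma adjusted p = 1.67e-07 and 7.03e-07). For Steap4 the untreated arrays of batch 1 were not well above background, so its fitted value is no bound, and its batch 2 value was 4.51. With retinoic acid Steap4 rose by 0.78 in batch 2. The fitted value over both batches was 0.66 (limma adjusted p = 0.0443), but in batch 1 neither group was well above background, so only batch 2 measured it. Vcam1, which encodes another adhesion molecule for leukocytes, rose with retinoic acid by 3.22 ± 0.21 (SE, limma adjusted p = 1.13e-07) and differed by -0.42 with IL-1α (limma adjusted p = 0.150). The acute phase gene Saa3 fell with retinoic acid, by 0.93 in batch 1 and by 4.31 in batch 2 (limma adjusted p = 0.00532 over both, limma adjusted p of the difference = 1.65e-06). Its untreated values of 12.53 to 13.66 also lay near the top of the scale.

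Junb, a transcription factor of the AP-1 family, and Cebpb, a transcription factor of acute phase responses, rose with IL-1α by 1.42 and 1.39 (limma adjusted p = 2.85e-06 and 1.21e-06). Both also rose with retinoic acid, by 0.73 and 1.00 (limma adjusted p = 3.90e-04 and 9.33e-06). Ier3, an early response gene linked to cell survival, rose by 1.41 with IL-1α and by 1.32 with retinoic acid (limma adjusted p = 1.10e-05 and 8.21e-06). The probe with the symbol Bcl2a1b, used here for the Bcl2a1 family of near-identical anti-apoptotic genes, whose members it may not tell apart, rose with retinoic acid by 1.11 (limma adjusted p = 1.59e-04) and differed by -0.07 with IL-1α.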

How the data were processed

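Total RNA from 12 cartilage samples was hybridised to Illumina bead arrays. The authors deposited probe intensities without background subtraction or normalization, and a detection score per probe, of which 1 minus the score was read as the detection p. How bead values were summarised is not given in the sources used here.

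Intensities were background-corrected, quantile normalized and log2 transformed with an offset of 16, as in neqc (R 4.3.3, limma 3.58.1). The filter kept 18200 of 46632 probes, those detected (p under 0.05) on 4 or more of the 12 arrays. The limma model had treatment and, following the study's methods, a factor of 4 levels for batch and replicate. Benjamini-Hochberg adjustment ran over all kept probes. A second model of treatment by batch tested differences between batches. A gene was represented by its brightest kept probe. The number of arrays limits the precision. The functions were tested on simulated data.

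Members and gene lists were chosen with earlier results of these data known. Besides all members, up to 3 called genes per list with the largest change with IL-1α, and up to 2 with retinoic acid, are named, with the 3 genes nearest each member by Pearson correlation. Of the nearest, 1 named gene per member is printed, except for Nfkbie, whose nearest gene is not reported here. Alternatives changed the background correction, scaling, offset, filter, model terms, arrays and probe choice. Birc2 was named after its values were seen.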

Additional observations from a re-analysis of the deposited data

Results flagged for a closer look

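The effect of IL-1α against untreated differed between batches for the dimmer Nfkb1 probe, by 0.85 on the log2 scale (batch 2 minus batch 1, limma adjusted p = 0.0380), and for Nfkbia, by 1.06 (limma adjusted p = 0.0187). For retinoic acid against IL-1α the batches differed by -1.26 for Nfkbia (limma adjusted p = 0.00420) and by -0.86 for Nfkbiz (limma adjusted p = 0.0226). These are 4 of 27 differences tested over 9 probes and 3 comparisons. Nfkbia was not well above background on any array of batch 1, so the sizes for it are not measured effects in that batch. Batch and mouse line are the same division of the arrays and cannot be told apart.

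In 1 of 36 groups of 4 arrays a single array stood far from the others. It was the untreated array of batch 2, replicate 1, for the second Nfkbie probe, which read 4.87, and this probe was not detected on any array. Chance gives such a gap in about 1 in 20 groups.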

How the results depend on the processing

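The rises of Relb, Nfkbie and Nfkbiz with IL-1α, and the falls of Nfkb1, Relb, Nfkbie and Nfkbiz with retinoic acid against IL-1α, kept their direction and call in every alternative run. For IL-1α against untreated the members called were 7, with 4 after scaling to one median (Nfkb1, Rela and Tnfaip3 were lost at limma adjusted p = 0.0667, 0.0521 and 0.0509, and for retinoic acid against IL-1α Rela and Nfkbia at 0.298 and 0.0509) and 3 with no batch and no replicate block. For retinoic acid against untreated the count was 2, with 1 among probes detected on all 12 arrays, 1 when a fold above 1.5 was required and 0 with no batch and no replicate block. For retinoic acid against IL-1α it was 7, with 4 under the last setting. With no batch and no replicate block, pathway genes called were 13, 10 and 11 in the 3 comparisons, and target genes called were 10 for retinoic acid against untreated and 23 against IL-1α. Pathway genes called with a fold above 1.5 were 18, 13 and 16, and target genes called for IL-1α among probes detected on all 12 arrays were 17. Members whose effect of IL-1α differed between batches were 0 with no filter and 0 among probes detected on all 12 arrays, and for retinoic acid against IL-1α they were 1 after normalization within each batch and 1 among probes detected on all 12 arrays. Without the filter, the Nfkbia call with IL-1α was lost (limma adjusted p = 0.0675) at the same log2 fold change of 0.93. An offset of 50 called Nfkb1 lower with retinoic acid (limma adjusted p = 0.0493).

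Small differences between retinoic acid and untreated changed sign. Nfkb2 was -0.01 after normalization within each batch, -0.0032 with an offset of 50 and -0.07 in batch 2, the dimmer Nfkb1 probe was 0.12 after median scaling and 0.11 in batch 2, and Rela and Relb were -0.03 and -0.04 in batch 1. The dimmer Nfkb1 probe was -0.07 in batch 1 for IL-1α. The cause was not tested. Median scaling moved the median of all genes with retinoic acid from 0.01 to 0.13, and the share of calls that were higher from 50.7% to 65.1% against untreated and from 49.5% to 65.8% against IL-1α. The median of the members was then 0.23. In batch 2 alone, Nfkb1 and Rela did not pass with IL-1α (limma adjusted p = 0.0843 and 0.0819).

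Leaving out each array in turn gave 7 to 8, 2 to 2 and 6 to 8 members called, 21 to 27, 17 to 24 and 18 to 29 pathway genes and 27 to 30, 22 to 27 and 32 to 37 target genes in the order IL-1α against untreated, retinoic acid against untreated and retinoic acid against IL-1α. Members that differed between batches were 0 to 2, 0 to 0 and 1 to 2. For retinoic acid against untreated, the log2 fold change ranged from -0.17 to 0.08 for the dimmer Nfkb1 probe, from -0.08 to 0.09 for Nfkb2 and from -0.03 to 0.08 for Relb. Pathway calls for retinoic acid against IL-1α ranged over 18 to 29, so their number changed with the arrays included.

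The replicate block was compared with a model of batch alone. Same-numbered arrays of a batch deviated together with correlations of -0.11 to 0.39. With 2 arrays per treatment and batch, these cannot settle whether the numbers pair the arrays. The block was kept because the study's methods have it. With batch only and no replicate block, the members called were 8, 2 and 7, the added call being Nfkb2 with IL-1α (0.33, limma adjusted p = 0.0453). With the replicate block in the model of 6 groups, the members that differed between batches were 1, 0 and 2, as without it.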
